A study of Mus musculus with 9 samples.

Results

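The genes examined encode the subunits of voltage-gated sodium channels, voltage-gated calcium channels and the HCN pacemaker channels. They were taken by gene name, as sodium channel alpha and beta genes (Scn followed by a number and the letter a or b), calcium channel alpha-1, alpha-2-delta, beta and gamma genes other than Cacna1c, and the genes of the HCN family. The names matched 43 of the 41710 gene names of the deposited table. They comprise 10 sodium channel alpha, 4 sodium channel beta, 9 calcium channel alpha-1, 4 alpha-2-delta, 4 calcium channel beta, 8 calcium channel gamma and 4 HCN genes. RNA was sequenced from whole hearts of male mice, all 8 months old and all of the FVB/N strain. In 3 libraries the mice carried an RKIP transgene, which the study describes as driven by the alpha-myosin heavy chain promoter and so active in heart muscle cells. Another 3 libraries are labelled Tg-GRK2, here called GRK2-labelled hearts, with a promoter that is not given in the sources used here, and 3 came from non-transgenic FVB mice. The labels number the libraries of each group as replicates and do not say whether each came from a separate mouse. The study counts its Tg-RKIP and FVB groups in mice.

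Sodium channels carry the fast inward current that starts the action potential of working heart muscle. Calcium channels bring in the calcium that drives contraction and, as the low-voltage-activated T type, contribute to pacemaking. HCN channels open on hyperpolarisation, bind cyclic AMP and carry the pacemaker current. In each sodium and calcium channel a large alpha subunit forms the pore, and smaller subunits set how many channels reach the membrane and how they gate.

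The libraries held 25458108 to 33447654 reads on transcripts. Spread within groups was small, with a coefficient of variation beyond read sampling of 2.86% in the edgeR fit. The median ratio of differences between libraries to read sampling was 1.25 to 1.53 within groups. Between Tg-RKIP and FVB it was 31.0 to 34.3. The SE and adjusted p-values below rest on this small spread, and how much of it is variation between mice was not tested. RKIP is encoded by Pebp1, which lay at 16000 to 16400 TPM (reads corrected for transcript length and scaled to the same total in each library) in Tg-RKIP and at 321 to 330 TPM in FVB. Grk2 itself did not pass between GRK2-labelled hearts and FVB (a log2 difference of 0.05 ± 0.04 SE, adjusted p = 0.354 by edgeR's quasi-likelihood test), so these hearts are called by their label. Mitochondrial genes took 11.7% ± 0.156 (SD) of the reads in Tg-RKIP, 22.6% ± 0.299 in GRK2-labelled hearts and 23.1% ± 0.158 in FVB. Below, normalized reads are reads scaled by the TMM method to the same depth, which keeps the bulk of all genes level between libraries. TPM is used to compare levels between genes. Scaling to all reads, or to TPM, moved the median log2 fold change of all genes between Tg-RKIP and FVB from 0.01 to 0.38 and 0.43. Changes are therefore relative to that median. In whole hearts, fewer cells of a type and less RNA per cell cannot be told apart.

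Of the 43 genes, 26 had enough reads to be tested. Among the genes described here, the highest levels in FVB hearts were those of Cacna2d1 at 43.1 ± 0.748 TPM (SD, n = 3), Cacnb2 at 33.7 ± 1.05, Scn4b at 25.3 ± 0.182 and Hcn2 at 13.7 ± 0.735 TPM. These are helper subunits of the cardiac L-type calcium channel and of sodium channels, and a pacemaker channel of working muscle. In Tg-RKIP hearts the order was Cacna2d1 at 45.1 ± 0.817, Hcn2 at 27.3 ± 0.935, Scn4b at 21.6 ± 0.846 and Cacnb2 at 20.7 ± 1.04 TPM, of which the last pair did not differ beyond their spread. GRK2-labelled hearts had the order of FVB, with Cacna2d1 at 52.3 ± 1.21 TPM.

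Between Tg-RKIP and FVB, 21 of the 26 tested channel genes passed the threshold of adjusted p below 0.05, or 80.8%. This was close to the 73.9% of all 15504 genes tested that did so, so at this threshold the number of calls does not set the channel genes apart. By direction, 7 were higher and 14 lower, beside 36.8% and 37.1% of all genes. Their median log2 fold change was -0.28, against 0.01 over all genes. Changes of at least 1 on the log2 scale were found in 4 channel genes that rose and 6 that fell, which is 15.4% and 23.1% of those tested, beside 10.2% and 6.12% of all genes. The split by direction depended on the processing. With scaling to library size it was 12 higher and 9 lower, where the median of all genes was 0.38 and 12359 of 15504 passed. On TPM it was 11 and 7 of 21 tested, where that median was 0.43 and 10896 of 13478 passed. Offsets for transcript length and GC content gave 10 higher and 11 lower, where 10835 of 15240 passed. Against a fold change of 1.5, 14 of the 26 channel genes passed, beside 3665 of all 15504 genes. Scn2b, which rose, and Scn4a, Scn10a, Scn4b, Cacna1g, Cacnb2 and Hcn4, which fell, kept both call and direction under all 21 other ways of processing that were tried. Across these the log2 fold change ran from 0.72 to 1.33 for Scn2b, -1.45 to -1.01 for Scn4a, -0.69 to -0.22 for Scn4b and -0.94 to -0.44 for Cacnb2. Those of Scn10a (-2.17 to -0.40), Hcn4 (-2.24 to -1.115) and Cacna1g (-7.12 to -1.24) ranged more widely.

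**Figure D1:**
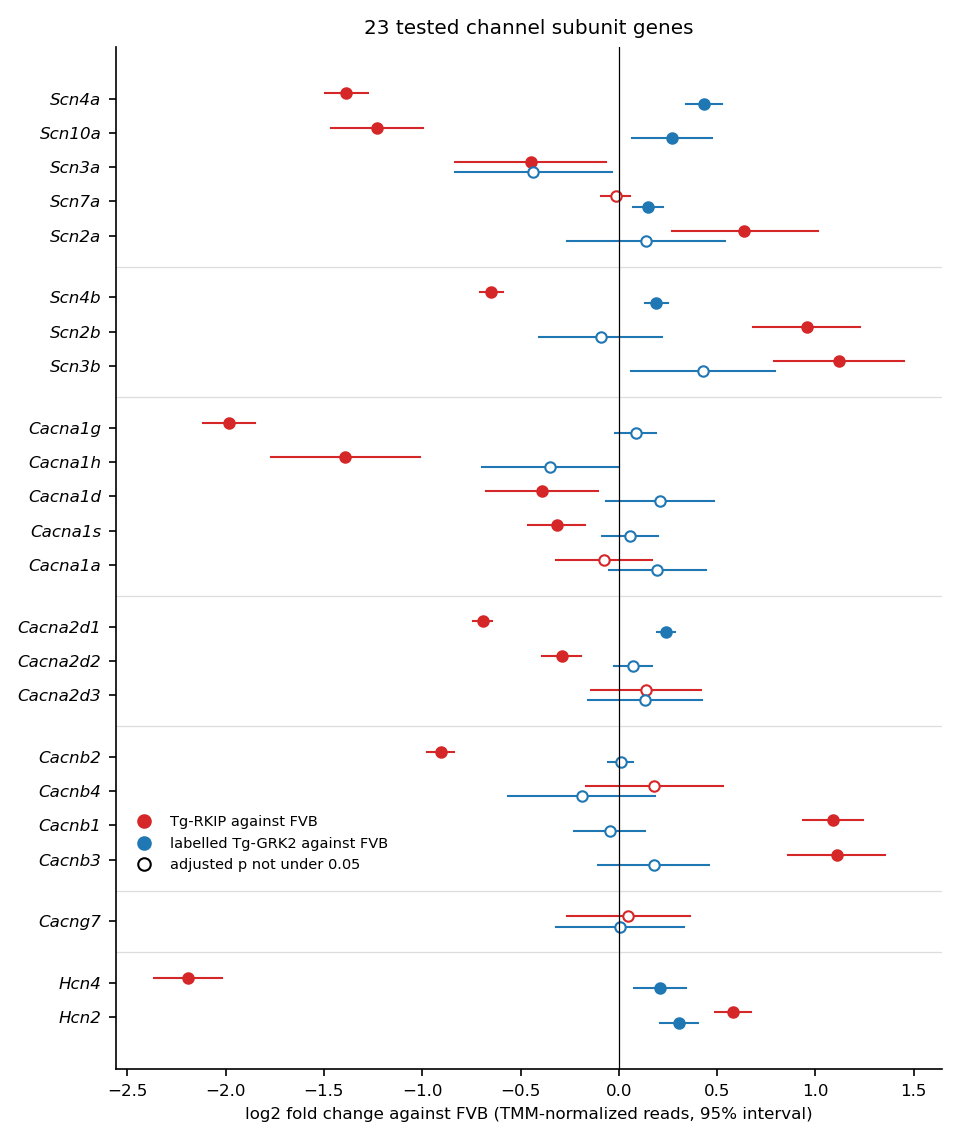
Log2 fold change against FVB of 23 tested channel genes, grouped by subunit class, for Tg-RKIP in red and GRK2-labelled hearts in blue, with 95% intervals as lines and open circles where the adjusted p was not below 0.05. Tg-RKIP values run from -2.19 (Hcn4) to 1.12 (Scn3b), and those of GRK2-labelled hearts from -0.43 (Scn3a, not called) to 0.43 (Scn4a).

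Scn4a, Scn10a, Cacna1g, Cacna1h and Hcn4, which fell by at least 1 on the log2 scale, encode pore-forming subunits, and Scn3b, Cacnb1 and Cacnb3, which rose by as much, encode helper subunits. Below that cutoff the pore genes Hcn2 and Scn2a rose, and the helper genes Cacnb2, Scn4b, Cacna2d1 and Cacna2d2 fell. With offsets for transcript length and GC content Cacnb1 was at 0.73, Cacnb3 at 0.765 and Scn2a at 1.03. The pacemaker genes and the calcium channel beta genes each held members that moved in opposite directions. RefSeq promoter sequences were held for 18 of the 26 tested genes. Those of Hcn2 and Hcn4, which moved apart, and of Cacnb1 and Cacnb3, which rose together, are shown as the 250 bases before the start, on build GRCm38.p6. Hcn2 and Hcn4 have 1 window each, while Cacnb1 and Cacnb3 have 2, of which the one with GC boxes is shown. Capitals mark matches on either strand to any of 6 short motifs, and adjoining matches run together. The letters GGGCGG make the GC box bound by Sp factors. The T-box element was searched as AGGTGT, which T-box factors of the conduction system bind. For the TATA box of core promoters the letters were TATAAA. The site of GATA factors was written as AGATAA. The E-box of basic helix-loop-helix factors was searched as CAGCTG. Finally the core of the MEF2 site was searched as TATTTATA.
Hcn2, plus strand of chr10:79716384-79716633: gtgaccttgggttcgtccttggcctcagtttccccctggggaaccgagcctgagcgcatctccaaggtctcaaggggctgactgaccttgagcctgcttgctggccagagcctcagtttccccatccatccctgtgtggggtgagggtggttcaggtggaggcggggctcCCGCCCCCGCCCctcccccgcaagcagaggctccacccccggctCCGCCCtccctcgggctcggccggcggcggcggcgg
Hcn4, plus strand of chr9:58822699-58822948: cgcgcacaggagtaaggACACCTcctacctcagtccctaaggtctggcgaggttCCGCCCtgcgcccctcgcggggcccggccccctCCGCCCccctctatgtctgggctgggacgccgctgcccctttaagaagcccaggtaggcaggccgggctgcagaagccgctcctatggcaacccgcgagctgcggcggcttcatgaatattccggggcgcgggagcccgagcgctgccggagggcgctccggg
Cacnb1, minus strand of chr11:98022628-98022877: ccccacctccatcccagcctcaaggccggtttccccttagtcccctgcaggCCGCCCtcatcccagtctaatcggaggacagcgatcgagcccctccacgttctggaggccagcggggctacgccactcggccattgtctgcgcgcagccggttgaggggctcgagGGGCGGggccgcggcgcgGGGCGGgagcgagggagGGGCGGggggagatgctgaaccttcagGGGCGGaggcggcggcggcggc
Cacnb3, plus strand of chr15:98634517-98634766: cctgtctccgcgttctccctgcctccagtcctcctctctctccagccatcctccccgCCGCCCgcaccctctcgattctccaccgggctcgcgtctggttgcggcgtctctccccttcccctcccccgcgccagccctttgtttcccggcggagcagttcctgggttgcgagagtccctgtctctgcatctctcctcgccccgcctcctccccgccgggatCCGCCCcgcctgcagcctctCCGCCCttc
The GC box is the motif all 4 windows shown hold, with 3 matches in Hcn2, 2 in Hcn4, 5 in Cacnb1 and 3 in Cacnb3. The other windows of Cacnb1 (chr11:98018373-98018622) and Cacnb3 (chr15:98632078-98632327) hold none of the 6 motifs. A GC box was present in 3 of 8 windows of genes that rose and 6 of 11 windows of genes that fell, beside 32.7% of all promoter windows. A T-box element stood in the Hcn4 window and in no other of these 4, and 11.8% of all windows held this element. Among the genes that rose or fell, E-boxes were found in the windows of Cacna1d, Cacna1s and Cacnb2 (13.0% of all windows), TATA boxes in those of Scn2a and Cacna1d (12.4%), and a T-box element also in that of Scn2a. GATA sites and MEF2 cores, in 9.99% and 1.56% of all windows, were in none of them. These matches describe letters in a window and were not tested for binding.

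Scn10a, a sodium channel pore best known from pain-sensing neurons (chr9:119437522-119548388, GRCm39), fell. Its normalized reads were 68.7, 78.5 and 96.5 in Tg-RKIP against 199.7, 181.9 and 189.7 in FVB (log2 fold change -1.23 ± 0.11 SE, adjusted p = 2.29e-09, edgeR). Scn11a, also of sensory neurons, had 0 to 7 reads in every library and was not tested. In GRK2-labelled hearts, Scn10a had 222.3, 229.3 and 236.4 normalized reads, all above FVB (log2 fold change 0.27 ± 0.10, adjusted p = 0.047). That call was lost in 14 of the 21 other analyses, among them DESeq2 (adjusted p = 0.146) and the omission of any single FVB library or any single GRK2-labelled library (0.24 to 0.31), and the sign turned for the most abundant transcript (-1.003).

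Scn4a, the sodium channel of skeletal muscle fibres (chr11:106209418-106244114), fell as well. Normalized reads were 404.5, 336.2 and 380.3 in Tg-RKIP against 985.9, 946.4 and 978.3 in FVB (log2 fold change -1.39 ± 0.05, adjusted p = 4.89e-16). In GRK2-labelled hearts they were 1312, 1301 and 1318, above FVB by 0.43 ± 0.04 on the log2 scale (adjusted p = 1.47e-07). Fast skeletal muscle genes were scarce in every group, with at most 10 reads of Myh4 in any library, and the 11 skeletal muscle markers summed to 3.44 to 5.84 TPM in FVB and 8.43 to 9.99 TPM in Tg-RKIP. Tnnt3 made up 68.8% of that difference, and without it the sums were 2.24 to 4.99 and 4.38 to 5.6 TPM, which overlap. Scn4a itself was at 8.83 ± 0.213 TPM in FVB and 3.64 ± 0.359 in Tg-RKIP. The part of skeletal muscle cells in its difference was not tested.

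Scn7a, an atypical family member that responds to extracellular sodium (chr2:66503769-66615258), did not pass between Tg-RKIP and FVB. It had 1405, 1377 and 1393 normalized reads in Tg-RKIP and 1392, 1471 and 1354 in FVB, with overlapping groups and an interval of the log2 difference from -0.09 to 0.06. Its sign turned and it was called higher with scaling to library size (0.36, adjusted p = 6.66e-09, edgeR), on TPM (0.40, adjusted p = 2.29e-05, limma) and with length and GC offsets (0.43, adjusted p = 6.96e-10, edgeR). Relative to the median of all genes these values lay at -0.03, -0.03 and 0.49. In GRK2-labelled hearts it had 1599, 1508 and 1575 normalized reads, above FVB by 0.15 ± 0.04 (adjusted p = 0.00423). Of the neuronal alpha genes, Scn2a rose in Tg-RKIP by 0.64 ± 0.18 on the log2 scale (adjusted p = 0.00298) at 57.1 ± 1.93 normalized reads, and by 1.03 with length and GC offsets. Scn3a, its neighbour at 53.1 kb, was lower by 0.45 ± 0.19 (adjusted p = 0.0346), a call that was lost without Tg-RKIP replicate 3 (-0.33), FVB replicate 1 (-0.29) or FVB replicate 3 (-0.42) with scaling to library size (-0.07), by DESeq2 (adjusted p = 0.0733), for the most abundant transcript (-0.94, adjusted p = 0.0602) and with length and GC offsets (-0.03). Scn1a, Scn8a and Scn9a had 0 to 8 reads in any library and were not tested.

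The beta subunits of sodium channels are small membrane proteins with an immunoglobulin fold that speed gating and link channels to adhesion sites. Scn4b, abundant in the heart, fell in Tg-RKIP. Its normalized reads were 1767, 1687 and 1666 against 2651, 2700 and 2668 in FVB (log2 fold change -0.65 ± 0.03, adjusted p = 6.39e-15). In GRK2-labelled hearts they were 3101, 3067 and 2992, above FVB by 0.19 ± 0.03 (adjusted p = 1.68e-05), or by 0.11 with length and GC offsets (adjusted p = 0.00264). Scn2b lies 8.32 kb from Scn4b, at chr9:45029080-45041368 beside chr9:45049693-45065450, and moved the other way. It had 120.4, 129.9 and 120.7 normalized reads in Tg-RKIP and 56.9, 68.9 and 65.2 in FVB, a rise of 0.96 ± 0.13 (adjusted p = 1.04e-06). Scn3b also rose, from 46.5, 52.4 and 35.6 normalized reads in FVB to 103.5, 91.0 and 101.4 in Tg-RKIP (log2 fold change 1.12 ± 0.16, adjusted p = 1.84e-06). The call was lost for its most abundant transcript alone (2.15, adjusted p = 0.329). In GRK2-labelled hearts it had 64.0, 56.8 and 61.5, with a difference from FVB that did not pass (0.43 ± 0.18, adjusted p = 0.0832).

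**Figure D2:**
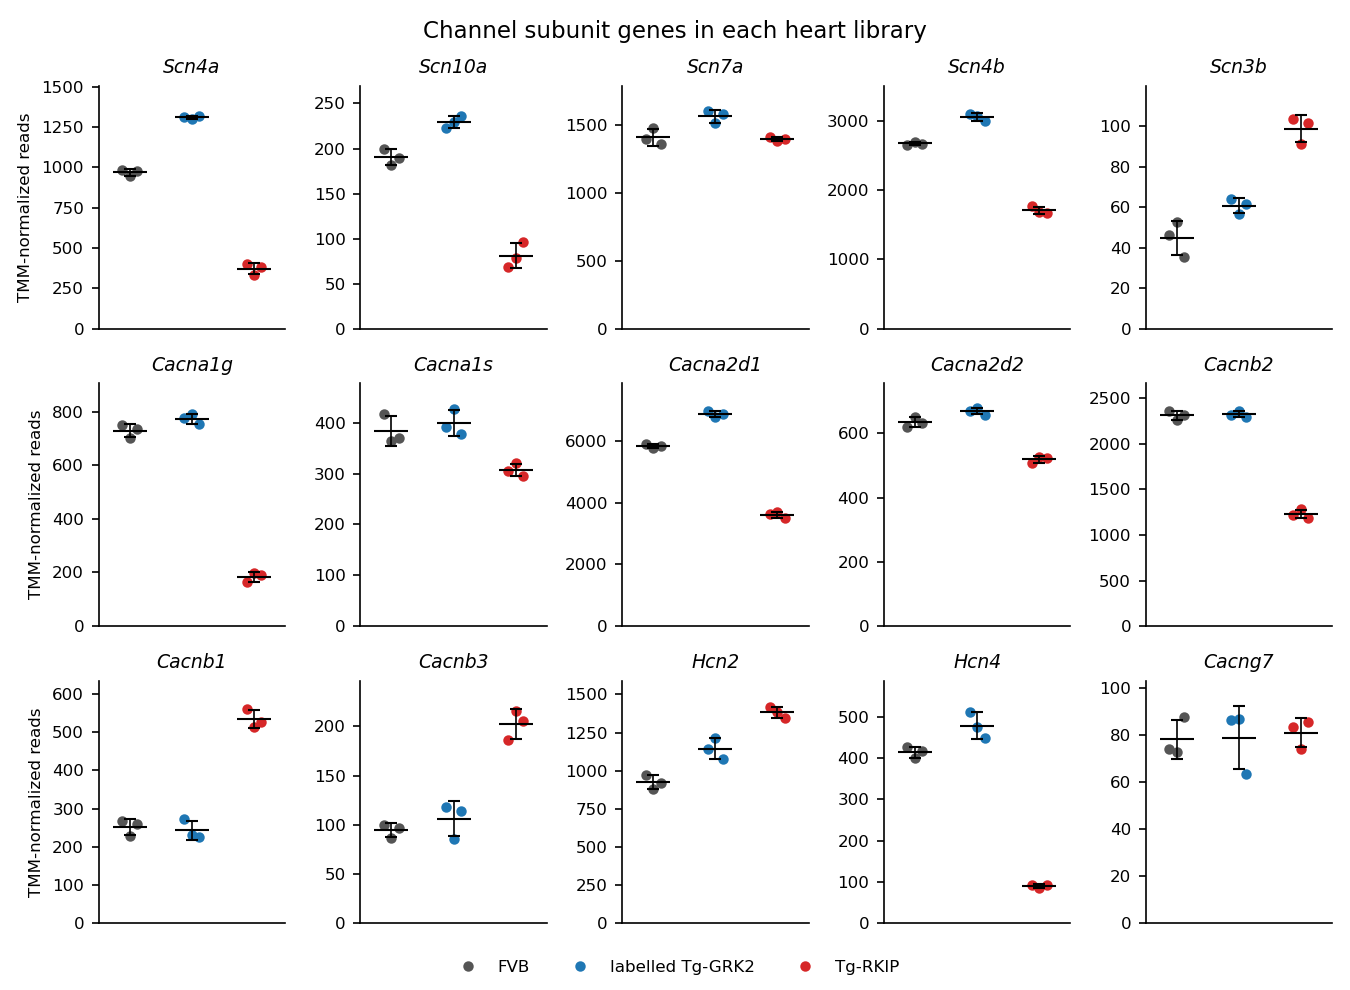
TMM-normalized reads of 15 channel genes, with each of the 9 libraries as a point, group means as horizontal lines and SD as error bars, on linear axes that start at 0. Scn4a, Scn10a, Cacna1g and Hcn4 lie lowest in Tg-RKIP (red), Scn3b, Cacnb1 and Cacnb3 highest, and the groups overlap for Cacng7.

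Cacna1g, a pore of the T-type calcium channel that is found in the sinoatrial node and conduction system of the adult heart (chr11:94299217-94365024), had the second largest fall. It had 162.7, 197.4 and 189.2 normalized reads in Tg-RKIP and 750.2, 701.8 and 736.4 in FVB (log2 fold change -1.98 ± 0.06, adjusted p = 2.35e-17). On log2(TPM + 1) the difference was -1.24. Its most abundant transcript, of 8104 bases, had 0, 7 and 0 reads in Tg-RKIP and 369, 336 and 72 in FVB, and gave a fitted value of -7.12 that rests on those few reads. In GRK2-labelled hearts the values were 776.6, 790.3 and 753.5, with an interval of the log2 difference from FVB of -0.02 to 0.19. Cacna1h, the other T-type pore with enough reads, fell by 1.39 on the log2 scale (SE 0.18, adjusted p = 5.86e-07) from 82.7 ± 12.3 (SD) normalized reads in FVB to 30.9 ± 5.69 in Tg-RKIP. That call was lost for its most abundant transcript (-3.04, adjusted p = 0.165). The third T-type gene, Cacna1i, had 0 to 6 reads in any library.

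Of the L-type pores other than Cacna1c, Cacna1d, found in atria and the sinoatrial node, was lower in Tg-RKIP by 0.39 ± 0.14 on the log2 scale (adjusted p = 0.0145). That call was lost without FVB replicate 2 (-0.28), with scaling to library size (-0.02) and with length and GC offsets (-0.20), and its sign turned on TPM (0.31). Cacna1s, the calcium channel of skeletal muscle (chr1:135980488-136047560), had 305.7, 320.0 and 295.4 normalized reads in Tg-RKIP and 416.9, 363.8 and 370.0 in FVB, which did not overlap. This log2 difference was -0.31 ± 0.07 (adjusted p = 3.72e-04), but turned to 0.06 with scaling to library size (adjusted p = 0.437, edgeR). The gene was called higher on TPM (0.55, adjusted p = 0.000154, limma) and for its most abundant transcript (0.62, adjusted p = 0.0185, edgeR). In GRK2-labelled hearts Cacna1s had 391.5, 427.4 and 378.7 normalized reads, which overlapped FVB. Cacna1a, of the neuronal P/Q type, did not pass in Tg-RKIP (-0.08 ± 0.12, adjusted p = 0.566). It had the opposite sign and was called higher with scaling to library size (0.30, adjusted p = 0.0266, edgeR) and on TPM (0.65, adjusted p = 0.00892, limma). Cacna1b, Cacna1e and Cacna1f had 0 to 12 reads in any library.

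Alpha-2-delta proteins sit on the outer face of the membrane and carry the pore subunit to the surface. Cacna2d1, the cardiac form and the target of gabapentin (chr5:16139689-16579509), had 3627, 3689 and 3495 normalized reads in Tg-RKIP, 5892, 5762 and 5836 in FVB and 6980, 6787 and 6863 in GRK2-labelled hearts. Reads were lower in Tg-RKIP by 0.69 ± 0.02 on the log2 scale (adjusted p = 4.15e-17) and higher in GRK2-labelled hearts by 0.24 ± 0.02 (adjusted p = 4.91e-08). On the TPM scale the gene did not fall, with 45.1 ± 0.817 TPM in Tg-RKIP and 43.1 ± 0.748 in FVB, a log2 difference of 0.07 that lies 0.36 below the median of all genes. Cacna2d2 had 507.9, 527.0 and 522.2 normalized reads in Tg-RKIP against 620.1, 652.5 and 633.2 in FVB (-0.29 ± 0.05, adjusted p = 9.03e-06), with a sign that turned with scaling to library size (0.08) and on TPM (0.11). In GRK2-labelled hearts its values were 670.3, 677.9 and 658.4. Cacna2d3 did not pass (0.14 ± 0.14, adjusted p = 0.366), but was called higher with scaling to library size (0.51, adjusted p = 0.00167), on both TPM scales (0.69 and 0.51, adjusted p = 0.00142 and 0.00108) and for its most abundant transcript (0.72, adjusted p = 0.035). Cacna2d4 had 0 to 9 reads.

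Beta subunits of calcium channels lie inside the cell, bind the pore subunit and protect it from degradation. Cacnb2, the main cardiac form (chr2:14607899-14992719), had 1217, 1280 and 1188 normalized reads in Tg-RKIP and 2355, 2266 and 2310 in FVB (log2 fold change -0.91 ± 0.03, adjusted p = 1.26e-16). Cacnb1, the skeletal muscle form (chr11:97892334-97913860), rose from 267.1, 228.1 and 258.5 to 559.7, 514.5 and 527.0 normalized reads (1.09 ± 0.07, adjusted p = 1.16e-11). Cacnb3, common in neurons and smooth muscle (chr15:98528721-98542410), rose from 99.9, 86.3 and 97.2 to 186.2, 215.8 and 205.6 normalized reads (1.11 ± 0.12, adjusted p = 3.02e-08). For the most abundant transcript alone the calls of Cacnb1 (1.20, adjusted p = 0.25) and Cacnb3 (1.64, adjusted p = 0.0774) were lost, and Cacnb2 was at -0.44. For all 3 the Tg-RKIP and FVB libraries did not overlap, which held for 75.7% of all genes tested, and none of the 3 passed in GRK2-labelled hearts. There Cacnb2 had 2317, 2362 and 2295 normalized reads, Cacnb1 272.2, 230.4 and 226.8, and Cacnb3 118.2, 85.7 and 114.4.

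Summed TPM of the calcium channel beta genes was nearly level, at 41.4 ± 1.71 in FVB, 43.3 ± 0.824 in GRK2-labelled hearts and 42.4 ± 1.08 in Tg-RKIP. On TPM the median log2 fold change of all genes between Tg-RKIP and FVB was 0.43, so a level sum lies below that median. Within that sum Cacnb2 went from 81.6% ± 0.842 in FVB to 48.8% ± 1.4 in Tg-RKIP, and Cacnb1 from 13.3% ± 0.522 to 37.8% ± 2.07. TPM of Cacnb1 and Cacnb3 together per TPM of Cacnb2 was 0.215 ± 0.0112 in FVB, 0.223 ± 0.0325 in GRK2-labelled hearts and 1.02 ± 0.0596 in Tg-RKIP. Cacnb4 did not pass (0.18 ± 0.17, adjusted p = 0.337), but was called higher with scaling to library size (0.56, adjusted p = 0.00456) and with length and GC offsets (0.68, adjusted p = 0.000905).

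Gamma subunits include a part of skeletal muscle calcium channels and proteins that act on glutamate receptors in the brain. Cacng7 was the only gamma gene with enough reads to test. It had 83.7, 74.1 and 85.9 normalized reads in Tg-RKIP, 86.8, 86.8 and 63.4 in GRK2-labelled hearts and 74.3, 73.0 and 87.8 in FVB, with overlapping groups (0.05 ± 0.15 for Tg-RKIP, adjusted p = 0.779). Its sign turned without FVB replicate 2 (-0.01) and with length and GC offsets (-0.30), and it was called higher with scaling to library size (0.42, adjusted p = 0.0141) and on both TPM scales (0.45 and 0.31, adjusted p = 0.0158 and 0.0125). Cacng6, the next most abundant in FVB and GRK2-labelled hearts, had 2 reads in each Tg-RKIP library, 3, 5 and 3 in GRK2-labelled hearts and 7, 5 and 10 in FVB. Cacng1, Cacng2, Cacng4 and Cacng5 had 0 to 7 reads in any library. Cacng8 had 1 to 4 reads in each Tg-RKIP library and 0 in the other 6, and Cacng3 had 0 in all 9, which allows up to 3 reads in a library.

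Hcn4, the main pacemaker channel of the sinoatrial node (chr9:58730695-58770458), made the largest fall. It had 94.1, 85.1 and 93.6 normalized reads in Tg-RKIP against 426.2, 400.7 and 416.2 in FVB, a log2 fold change of -2.19 ± 0.08 (adjusted p = 5.18e-16). In GRK2-labelled hearts it had 513.0, 476.4 and 447.9, all above FVB (0.21 ± 0.06, adjusted p = 0.0195), a call that was lost in 8 of the 21 other analyses. Among these were length and GC offsets (0.09, adjusted p = 0.367), DESeq2 (adjusted p = 0.0933), log2(TPM + 0.1) (adjusted p = 0.0988) and the omission of Tg-GRK2 replicate 1 (0.16) or FVB replicate 2 (0.18). Hcn2, the form of working muscle (chr10:79552468-79571942), rose from 974.3, 882.7 and 922.6 normalized reads in FVB to 1419, 1383 and 1347 in Tg-RKIP (0.58 ± 0.04, adjusted p = 1.13e-10). It was also higher in GRK2-labelled hearts, at 1144, 1213 and 1076 (0.30 ± 0.05, adjusted p = 4.10e-05), or by 0.14 with length and GC offsets (adjusted p = 0.0328). The 2 transgenic groups differed from each other by 0.28 ± 0.04 for Hcn2 (adjusted p = 5.11e-06) and by -2.40 ± 0.08 for Hcn4 (adjusted p = 4.80e-17). With the offsets the Hcn2 call between them was lost (0.08, adjusted p = 0.0934).

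Ratios of TPM within a library do not depend on scaling between libraries. TPM of Hcn2 per TPM of Hcn4 was 4.38, 4.22 and 4.24 in the FVB libraries, 4.27, 4.88 and 4.60 in GRK2-labelled hearts, and 28.9, 31.1 and 27.5 in Tg-RKIP. Hcn4 made up 18.2% ± 0.286 of HCN TPM in FVB, 17.5% ± 1.01 in GRK2-labelled hearts and 3.23% ± 0.213 in Tg-RKIP. Hcn3 had 4 to 12 reads in any library.

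**Figure D3:**
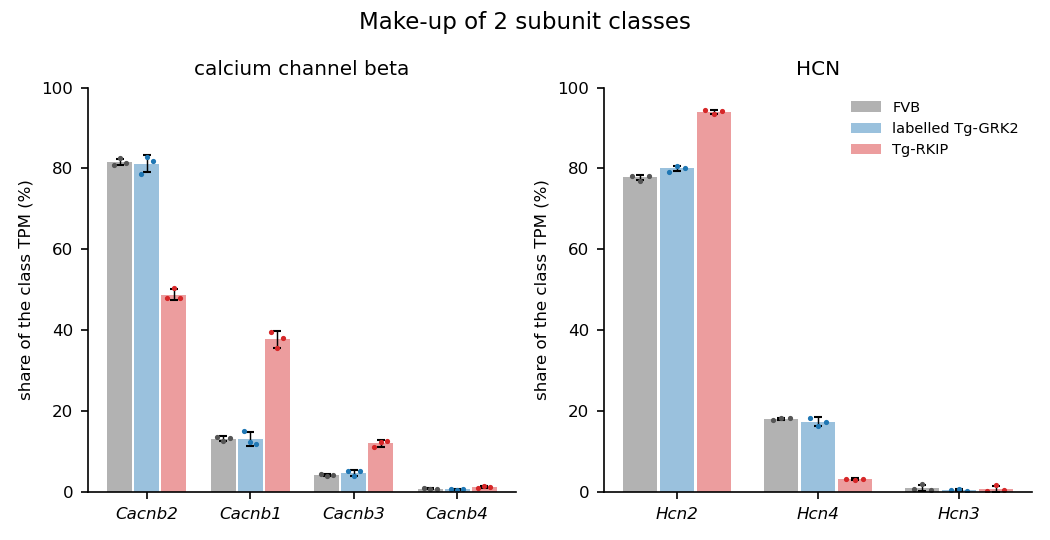
Share of single genes in the summed TPM of all calcium channel beta genes and of all HCN genes, in percent, with bars as group means, error bars as SD and points as the 3 libraries of a group. In Tg-RKIP (red) Hcn2 takes 94.0% and Cacnb2 48.8% of their classes, against 77.8% and 81.6% in FVB (grey).

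In GRK2-labelled hearts, 10 of the 26 tested channel genes passed against FVB, or 38.5%, beside 24.5% of all genes. They were 9 higher and 1 lower, where 12.2% of all genes were called in each direction, and the median log2 fold change was 0.14 over the channel genes and 0.00 over all genes. Scn4a, Hcn2, Scn10a, Cacna2d1, Hcn4, Scn4b and Scn7a were among those higher. With length and GC offsets the split was 7 higher and 2 lower, where 3242 of all 15240 genes passed. No channel gene was called by 1 or more on the log2 scale (0.929% of all genes were called higher and 0.651% lower by that much). None of the 10 passed a test against a fold change of 1.5, which 155 of all 15504 genes did. In the same comparison 5 of 7 fibroblast markers were called higher. Of 8 cardiomyocyte markers 6 were lower and 2 higher, Ryr2 by 0.38 and Myh6 by 0.12. The part of these markers' cells in the channel differences was not tested. Compared directly, Tg-RKIP and GRK2-labelled hearts differed in 21 of the 26 genes, beside 74.5% of all genes. In Tg-RKIP, 7 were higher and 14 lower, beside 37.9% and 36.6% of all genes. By at least 1 on the log2 scale 3 were higher and 6 lower (9.89% and 6.91% of all genes), and 22 did not overlap (76.4% of all genes). Large differences between them were those of Hcn4 (-2.40), Cacna1g (-2.07 ± 0.06, adjusted p = 7.06e-18) and Scn4a (-1.82 ± 0.05, adjusted p = 1.10e-18). The split was 12 higher and 9 lower with scaling to library size, where the median log2 fold change of all genes was 0.38. With length and GC offsets it was 10 and 13.

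Transcripts were compared for Cacna2d1 and Cacna1s, whose sign turned on TPM, and for Cacnb2. Of the reads of Cacna2d1, a retained-intron transcript of 1866 bases took 3.67% ± 0.359 (SD) in FVB, 3.24% ± 0.261 in GRK2-labelled hearts and 14.1% ± 0.835 in Tg-RKIP. Its main coding transcript of 7311 bases held 3789 to 4745 reads in FVB and 1788 to 2415 in Tg-RKIP, on average 78.8% and 50.9%, and a coding transcript of 7436 bases took 15.3% ± 4.94 and 33.8% ± 10.3. Cacna1s had a non-coding processed transcript of 1001 bases at 18.3% ± 3.19 of its reads in FVB and 36.1% ± 5.84 in Tg-RKIP. For Cacnb2 a retained-intron transcript of 2802 bases held 293 to 459 reads in FVB and 0 to 29 in Tg-RKIP, or 19.8% ± 5.68 and 1.02% ± 0.892. Its coding transcript of 3945 bases took 64.6% ± 4.46 of the reads in FVB and 91.8% ± 0.584 in Tg-RKIP. How reads shared by several transcripts were divided is not given in the sources used here, and these shares were not tested. For the most abundant transcript alone, the log2 fold change of Cacna2d1 in Tg-RKIP was -1.37 and that of Scn10a -2.17.

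**Figure D4:**
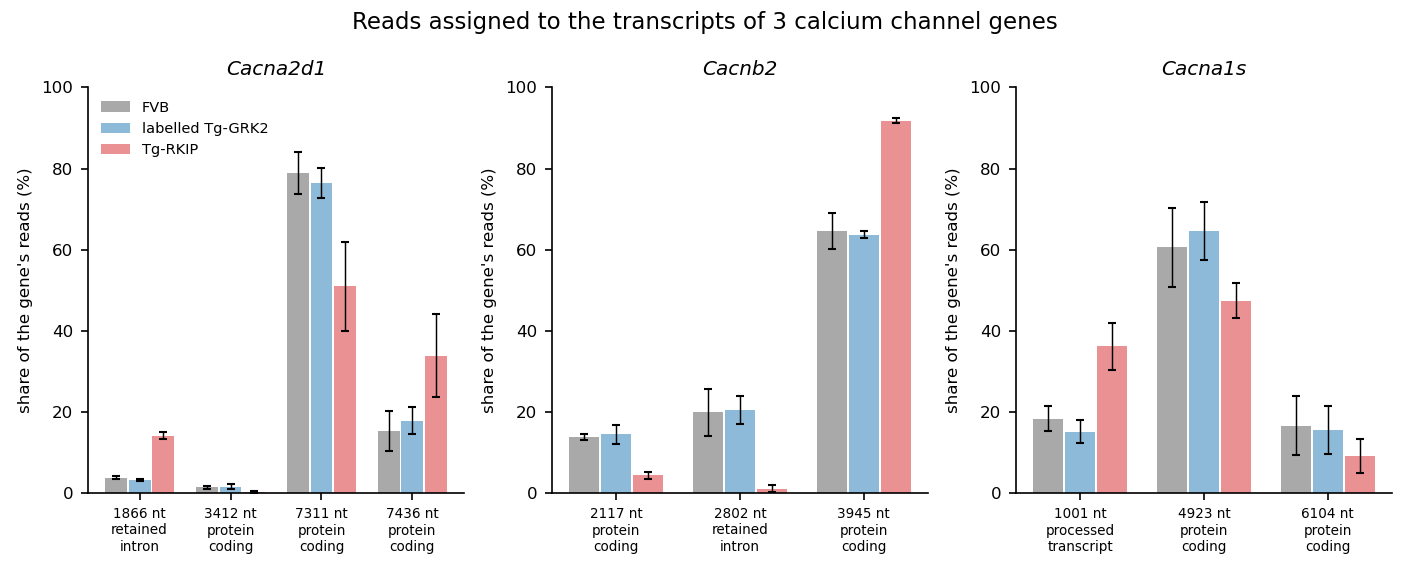
Share of the gene's reads assigned to each transcript with a mean of at least 50 reads in some group, in percent, for Cacna2d1, Cacnb2 and Cacna1s, labelled by length in bases (nt) and annotation class, with bars as means of 3 libraries and error bars as SD. In Tg-RKIP (red) the short non-coding transcripts of Cacna2d1 and Cacna1s take 14.1% and 36.1% of the reads, and the retained-intron transcript of Cacnb2 takes 1.02%.

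Genes known to bind or regulate these channels, and genes of the conduction system, were read from 4 lists. Between Tg-RKIP and FVB, 33 of the 44 tested partner genes passed, 15 higher and 18 lower. Of all genes 73.9% passed, 36.8% higher and 37.1% lower. The split became 28 higher and 10 lower with scaling to library size, where the median log2 fold change of all genes was 0.38. On TPM it was 26 and 9 of 41 tested, where that median was 0.43. Of 13 sodium channel partners, 2 were higher and 8 lower, beside the same 36.8% and 37.1%. The one past 1 on the log2 scale was Ank2, the ankyrin that holds ion transporters at the membrane, with 2363, 2337 and 2235 normalized reads in Tg-RKIP and 5244, 5119 and 5282 in FVB (-1.17 ± 0.02, adjusted p = 9.82e-21), although the sign turned for its most abundant transcript alone (0.10). Fgf13, a sodium channel binding factor named after its values were seen, was lower by 0.92 ± 0.03 (adjusted p = 9.00e-17).

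Among the 14 tested calcium channel partners, 5 were higher and 3 lower in Tg-RKIP, beside 36.8% and 37.1% of all genes. Bin1, which shapes the T-tubule membrane where L-type channels cluster, rose from 154.5, 165.4 and 156.5 normalized reads in FVB to 456.2, 511.6 and 508.7 in Tg-RKIP (1.63 ± 0.07, adjusted p = 1.12e-14), and had 196.3, 193.7 and 181.6 in GRK2-labelled hearts. Rrad, which encodes the small GTPase Rad that restrains the L-type channel and was also named after its values were seen, rose by 0.50 ± 0.02 in Tg-RKIP (adjusted p = 3.35e-14) and by 0.54 ± 0.02 in GRK2-labelled hearts (adjusted p = 3.54e-13). With length and GC offsets its difference in Tg-RKIP was 0.08, and it did not pass against a fold change of 1.5. Of 4 tested HCN partners 1 was higher and 2 lower in Tg-RKIP, beside the same shares of all genes, and none by 1 on the log2 scale. In GRK2-labelled hearts, 15 of the 44 passed, beside 24.5% of all genes. They were 11 higher and 4 lower, beside 12.2% in each direction, and none passed against a fold change of 1.5, where 155 of all 15504 genes did. With length and GC offsets 8 were higher and 7 lower.

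The conduction system list held 13 tested genes, of which Tg-RKIP hearts had 7 higher and 5 lower, beside 36.8% and 37.1% of all genes, with a median log2 fold change of 0.15. Cpne5, Cntn2 and Gja5 fell most. Cpne5 had 28.2, 35.2 and 31.9 normalized reads in Tg-RKIP against 157.9, 151.0 and 153.0 in FVB (-2.26 ± 0.14, adjusted p = 2.17e-12). Cntn2, a contactin of Purkinje cells, had 161.8, 171.0 and 169.9 against 522.6, 498.4 and 519.4 (-1.61 ± 0.06, adjusted p = 6.45e-16). Gja5, the connexin of fast conduction, had 284.1, 315.6 and 314.7 against 811.7, 787.1 and 699.7 (-1.33 ± 0.06, adjusted p = 4.07e-14). None of these 3 passed in GRK2-labelled hearts. The sinoatrial transcription factors Shox2 and Tbx18, named after their values were seen, were higher in Tg-RKIP by 0.67 ± 0.12 and 0.66 ± 0.08 (adjusted p = 3.88e-05 and 1.76e-07). Tbx3, another factor of the sinoatrial node, was lower by 0.21 ± 0.07 (adjusted p = 0.00894). Irx3, a factor of the fast-conducting system, was higher by 0.32 ± 0.05 (adjusted p = 9.37e-06), also named after its value was seen.

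Markers of cells that a whole heart holds moved between the groups too, and their part in the channel results was not tested. The counts in Tg-RKIP stand beside 36.8% of all genes called higher and 37.1% lower. Sums are of TPM, on which the median log2 fold change of all genes between Tg-RKIP and FVB was 0.43, and are not corrected for it. Of 8 cardiomyocyte markers 7 were lower in Tg-RKIP than in FVB, by 0.10 (Tnnt2) to 2.07 (Ryr2) on the log2 scale. Their summed TPM was 47300 to 48300 in Tg-RKIP and 49300 to 49600 in FVB, or 37200 to 37800 and 35300 to 36200 without Myl2. Atrial markers went both ways, with 5 of 8 higher and 3 lower, Nppa by 1.88 and Myl7 by -1.28. Their sum, mostly Nppa, was 23800 to 24500 TPM in Tg-RKIP and 6730 to 6890 in FVB. Of 8 tested neuronal markers 2 were higher, Uchl1 by 3.00 and Prph by 1.07, and 1 lower, Dbh by -0.61. These markers summed to 158.0 to 160.0 TPM in Tg-RKIP and 24.4 to 26.2 in FVB. Uchl1 made up 96.6% of that difference, and without it the sums were 16 to 17.3 and 11.7 to 11.9 TPM, with Th at no more than 11 reads in any library. Of 8 Schwann cell markers 5 were higher and 1 lower, with sums of 34.2 to 36.0 and 12.5 to 12.9 TPM.

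Smooth muscle markers were 6 higher and 1 lower of 7 (789 to 806 TPM in Tg-RKIP, 328 to 353 in FVB), fibroblast markers 7 of 7 higher (2410 to 2420 and 974 to 1000 TPM), adipocyte markers 7 of 7 higher (1010 to 1040 and 603 to 634 TPM) and endothelial markers 4 higher and 2 lower of 6 (445 to 450 and 301 to 304 TPM). Without Fabp4 the adipocyte sums were 166 to 174 TPM in Tg-RKIP and 16.3 to 17.8 in FVB. Airway epithelium markers were 5 of 5 tested higher in both transgenic groups, at 94.5 to 101.0 TPM in Tg-RKIP, 201 to 210 in GRK2-labelled hearts and 0.411 to 0.840 in FVB, where Scgb1a1 had 0 reads. Of the 6 tested skeletal muscle markers 2 were higher and 1 lower in Tg-RKIP.

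In GRK2-labelled hearts against FVB, 12.2% of all genes were called in each direction. Cardiomyocyte markers were 2 higher and 6 lower of 8, from Myl2 at -0.23 to Ryr2 at 0.38, with sums of 47200 to 48700 TPM. Fibroblast markers were 5 of 7 higher, up to 0.76 for Col3a1, with sums of 1100 to 1110 TPM. Adipocyte markers were 4 higher and 1 lower of 7, with sums of 520 to 555 TPM, below those of FVB. Without Fabp4 the adipocyte sums were 28.0 to 31.3 TPM, above the 16.3 to 17.8 TPM of FVB. Neuronal markers were 3 of 8 tested higher (29.0 to 30.8 TPM) and Schwann cell markers 2 of 8 (14.1 to 15.1 TPM). Atrial markers were 3 higher and 2 lower of 8, endothelial markers 1 higher and 3 lower of 6, and smooth muscle markers 2 lower of 7. The 6 tested skeletal muscle markers had adjusted p-values of 0.153 to 0.999.

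Across all genes the Tg-RKIP difference followed transcript length and GC content, and the channel genes span both. The median log2 fold change was 0.17 in the shortest of 5 equal bins of genes and -0.26 in the longest, and -0.23 in the bin poorest in GC and 0.23 in the richest. Genes of the channels that rose had a median length of 3195 bases and those that fell 6517 bases, with GC contents of 59.1% and 54.5%. With offsets for both properties, chosen after the data were seen, Cacnb1 was still higher by 0.73 on the log2 scale, Cacnb3 by 0.76, Scn3b by 1.19 and Scn2b by 0.99. Hcn2 moved to 0.22, which is more than 1.5 times less, and Cacna2d1 to -0.27. The falls of Hcn4 (-2.24), Cacna1g (-1.97), Scn4a (-1.35), Scn10a (-1.14) and Cacnb2 (-0.86) were within 0.1 of their values without offsets. In GRK2-labelled hearts against FVB the median of all genes ran the other way with length, from -0.07 in the shortest bin to 0.05 in the longest. The channel genes called higher there had a median length of 6466 bases.

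**Figure D5:**
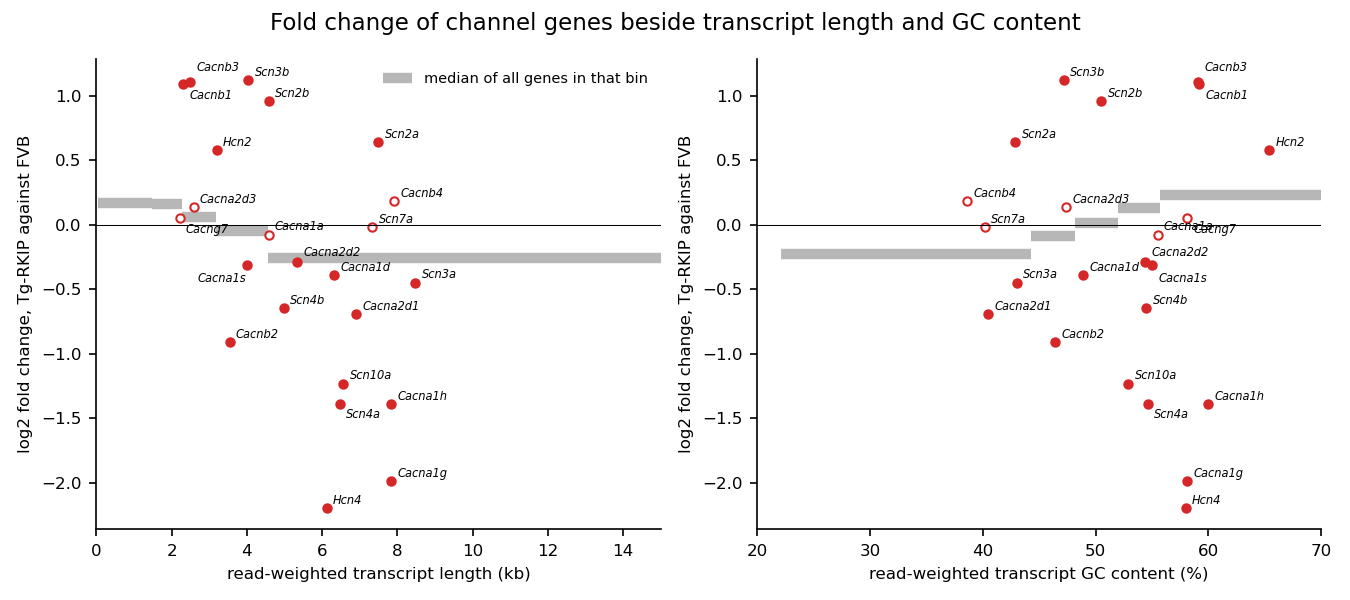
Log2 fold change of 23 tested channel genes between Tg-RKIP and FVB against read-weighted transcript length in kilobases (left) and GC content in percent (right), with filled circles for genes called and grey bars for the median of all genes in each of 5 equal bins of the axis variable. The medians run from 0.17 to -0.26 with length and from -0.23 to 0.23 with GC, and Hcn4 (-2.19) and Scn3b (1.12) lie far outside them.

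No exonic base of Scn4b, Scn4a, Hcn2, Hcn4, Cacna1g, Cacnb3 or Cacna2d1 is shared with another gene of the table. The largest overlaps among tested genes were 1309 bases between Cacna1s and Gm37759, which had at most 4 reads, 1170 bases between Cacnb4 and A430018G15Rik, with at most 20 reads, and 589 bases between Cacna1d and Chdh, with at most 66 reads. The Scn genes of the chromosome 2 cluster are close in sequence, and how reads that match several of them were counted is not given in the sources used here.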

How the data were processed

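Whole hearts were pulverised frozen, and mRNA was sequenced as single reads of 50 bases, with 9 libraries in 3 groups of 3. The authors deposited a read count and a TPM value per transcript. The submitters' processing notes name build GRCm39; the aligner and counter are not given in the sources used here. Counts were summed by gene name (127558 transcripts, 41710 names). Genes with enough reads for edgeR's filter (15504) were fitted over all 9 libraries with the quasi-likelihood test (edgeR 4.0.16, R 4.3.3, TMM scaling), with p-values adjusted by Benjamini-Hochberg over all of them and a threshold of 0.05. SE is the absolute log2 fold change divided by the square root of F. The deposited TPM values equalled those recomputed from counts and lengths within 5.5e-06. Library totals of 25458108 to 33447654 reads set the precision, and a count of 0 allows up to 3 reads. Intervals and floors cover counting error or the spread between these libraries only. Alternatives included DESeq2 1.42.0, limma 3.58.1 on log2(TPM + 0.1) and log2(TPM + 1), other scalings and filters, a fold threshold of 1.5, the most abundant transcript, a replicate block and leaving out each library. The scripts were tested on simulated data. The channel genes and lists were chosen with earlier results of these data known. Named with every library are channel genes that changed by at least 1 on the log2 scale in Tg-RKIP with a mean of at least 100 reads, the 2 most abundant of each class by TPM, and those called in GRK2-labelled hearts; partner genes are named at changes of at least 1, up to 4 a list. Motifs were searched on both strands of 32851 RefSeq promoter windows of GRCm38.p6, whose coordinates are not those of the counts. Some genes count in the totals over channel genes and lists but are not reported by name here.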

Additional observations from a re-analysis of the deposited data

How the results depend on the processing

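Between Tg-RKIP and FVB the number of channel genes called was 14 to 22 under every alternative and 19 to 21 with single libraries left out. The 22 were of 42 tested without a filter on low counts, where 11913 of all 27280 genes passed. The 14 were of 26 against a fold change of 1.5, where 3665 of 15504 genes passed. Between GRK2-labelled hearts and FVB the number of channel genes called was 10, and 7 to 10 with single libraries left out. For the most abundant transcript alone it was 5, where 1665 of 15177 genes passed. Against a fold change of 1.5 it was 0, where 155 of 15504 did, and DESeq2 without that fold called 7. Between both transgenic groups it was 21, 20 to 22 with single libraries left out and 13 against a fold change of 1.5, where 3867 of 15504 genes passed. Of 44 tested partner genes, those called in Tg-RKIP went from 33 (32 to 34) to 8 against a fold change of 1.5. Of all genes 3665 of 15504 passed that fold. In GRK2-labelled hearts partner genes went from 15 (13 to 16) to 5 for the most abundant transcript and 0 against that fold, beside the same 1665 and 155 of all genes.

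These log2 fold changes turned sign in Tg-RKIP against FVB. With scaling to library size Cacna1a was 0.30, Cacna1s 0.06, Cacna2d2 0.084 and Scn7a 0.36. On log2(TPM + 0.1) and log2(TPM + 1), Cacna1a was 0.65 and 0.46, Cacna1d 0.31 and 0.17, Cacna1s 0.56 and 0.50, Cacna2d1 0.065 and 0.064, Cacna2d2 0.108 and 0.094, and Scn7a 0.40 and 0.37. For the most abundant transcript Cacna1s was 0.62 and Ank2 0.10. Without FVB replicate 2, Cacng7 was -0.007 and Scn7a 0.014, within ranges of -0.007 to 0.13 and -0.049 to 0.014 over single libraries left out. With length and GC offsets, chosen after seeing the data, Cacng7 was -0.30 and Scn7a 0.43. In GRK2-labelled hearts against FVB, Scn10a was -1.003 for its most abundant transcript. Between the transgenic groups Scn7a was 0.20 with scaling to library size, 0.20 and 0.19 on TPM and 0.32 with the offsets. It was called higher in each of these, with adjusted p-values from 5.17e-08 (edgeR, offsets) to 0.00284 (limma, log2(TPM + 1)). The cause of the turned signs was not tested.

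Deviations of same-numbered libraries correlated at -0.04 to 0.04, so the numbers were not taken as pairs. With the replicate number as a block, the calls were 21, 9 and 21 channel genes in the 3 comparisons and 33 and 15 partner genes, and Scn10a in GRK2-labelled hearts (0.27, adjusted p = 0.0573, edgeR) was the one channel gene named here to lose its call. At this depth, the 17 genes with too few reads to test, none above 12 reads in a library, cannot be compared.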
